A study of Mus musculus with 10 samples.

Results

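The genes described here are 9 genes of myelin that oligodendrocytes express, some of which Schwann cells share: Mbp, Mobp, Mog, Mag, Cnp, Mal, Cldn11, Ugt8a and Opalin. They were taken by gene symbol, every probe set that the array's platform table pairs with a member being included, and they make up 9 of 18193 named genes. Together they have 25 of the 45037 probe sets that are not controls. Mbp has 8 of them, Mobp 5, Cnp 3, and Mal, Ugt8a and Opalin 2 each, while Mog, Mag and Cldn11 have 1 each.

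RNA of the cochlea, the hearing organ of the inner ear, was hybridised to mouse Affymetrix arrays. A total of 5 arrays came from male wild-type mice (Polg+/+) aged 9 months and 5 from male mice of the same age with the D257A form of Polg in both copies (PolgD257A/D257A). Polg is the mitochondrial DNA polymerase, and the D257A form lacks proofreading, so that mutations build up in mitochondrial DNA. The comparison asks which cochlear transcripts differ with that load of mutations, and no treatment was given to either group. The labels number the arrays 1 to 5 within a group without saying that each is 1 animal, and the design text says that replicates were not done, so p-values measure the spread between these arrays, which may be technical.

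Myelin is the membrane that a glial cell wraps around an axon. In the central nervous system it is made by oligodendrocytes and in peripheral nerve by Schwann cells. The auditory nerve carries both kinds, with oligodendrocyte myelin on its part near the brainstem and Schwann cell myelin on its part within the cochlea. Mbp, Mag, Cnp, Mal and Ugt8a belong to both kinds of myelin, whereas Mobp, Mog, Opalin and Cldn11 are known in the nervous system mainly as oligodendrocyte genes.

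All 10 arrays were scaled alike by the authors, with trimmed means of 1494 to 1496 and medians of 551.7 to 649.3. D257A replicate 2 and wild-type replicate 3 correlated least with their own groups (mean r of 0.839 and 0.876, against 0.878 to 0.939 for the other arrays). Defining genes of the cochlea such as Coch, Otos and Gjb2 were bright, and 0 of the 10 tested cochlear genes passed the test. Values are array signals on a linear scale, and differences are log2 fold changes of signal + 16, D257A over wild type, with the adjusted p of limma over 22518 tested probe sets. Those were the brighter ones, from a mean signal of about 577 upwards. In whole tissue, more cells of a type and more RNA per cell cannot be told apart.

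Of the 25 member probe sets 21 were bright enough to be tested, and 5 of these rose in D257A cochleae. They were 4 probe sets of Mbp and 1 of Mobp. None of the 21 fell, 18 had a positive log2 fold change, and the median was 0.58. Over all tested probe sets limma called 1.03% higher and 1.24% lower (2.28% in either direction). The groups did not overlap, with D257A higher, in 4 of the 21, against 2.47% of all tested probe sets. None of the 21 had D257A lower without overlap, against 2.69%. Those 4 all belong to Mbp and so are readings of 1 gene. By its brightest probe set, which stands for a gene here, 1 of 7 tested members rose (Mobp), against 0.657% of all genes higher and 1.66% lower (2.32% together). The 7 log2 fold changes were all positive, with a median of 0.41, while 47.1% of all 11871 tested genes were positive, with a median of -0.02.

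**Figure D1:**
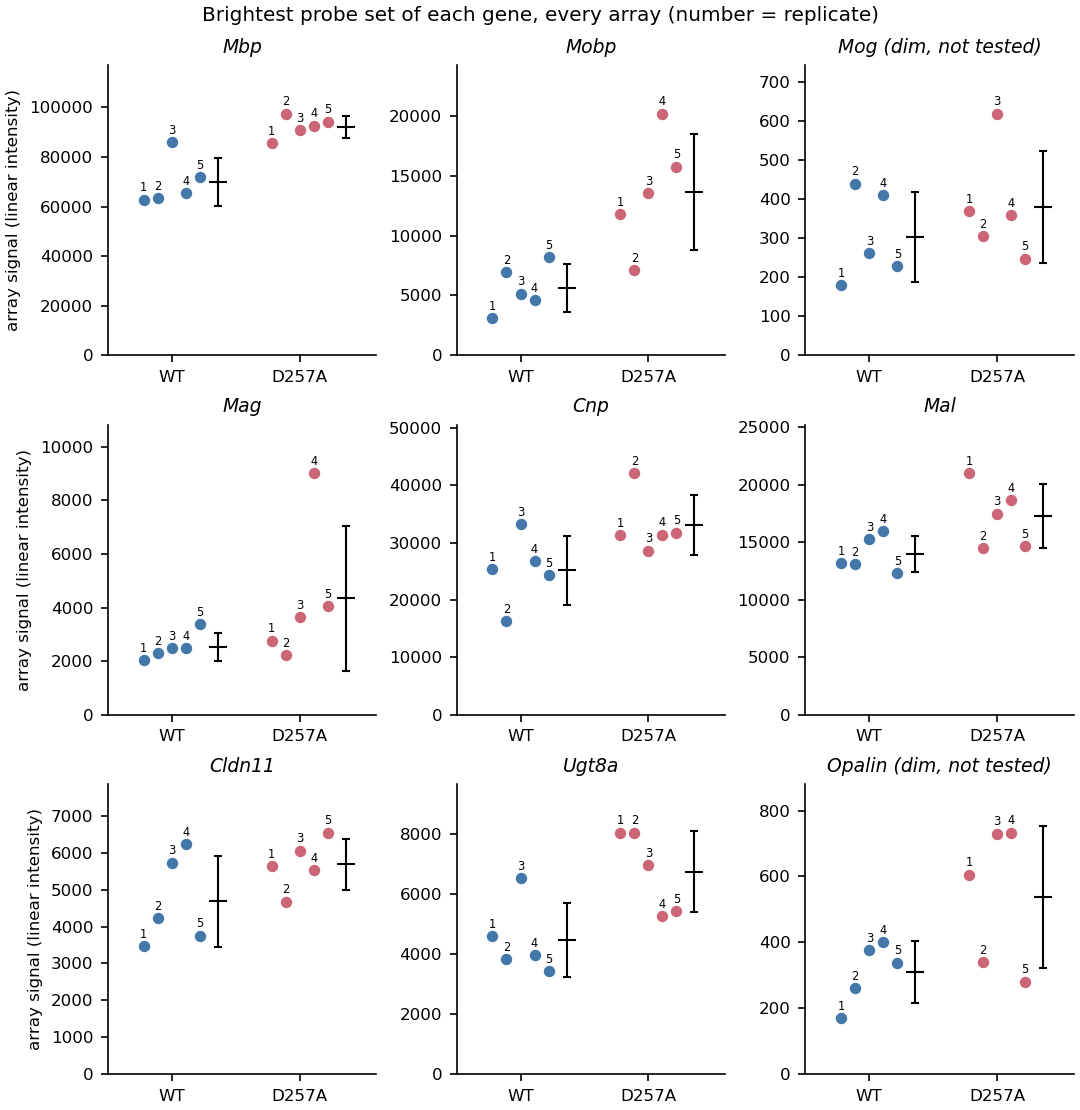
Array signal (linear intensity, axes from 0) of the brightest probe set of each of the 9 genes, with every array as a point numbered by replicate and the mean ± SD of each group (n = 5) in black. The groups overlap in every panel; for Mbp and Mobp 24 of the 25 pairs of 1 wild-type and 1 D257A array have the D257A array higher.

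Mbp encodes myelin basic protein, which lies on the inner face of the membrane and holds its layers together in the compact myelin of both cell types. Its brightest probe set, 1433532_a_at, measured 62778.3, 63400.3, 85889.4, 65423.3 and 71744.2 in wild-type replicates 1 to 5. In D257A replicates 1 to 5 it measured 85494.4, 97525.9, 90746.1, 92690.2 and 94204.5. Wild-type replicate 3 alone reached the D257A range. The means were 69847 ± 9644 and 92132 ± 4463 (SD, n = 5 each), and the difference did not pass the test (log2 fold change 0.41, SE 0.13, limma adjusted p = 0.113).

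The suffix of an Affymetrix probe set says how specific its probes are: _a_at stands for several transcripts of 1 gene, _s_at for probes shared by transcripts that may belong to several genes, and _x_at for probes of which some may bind other sequences. The 4 probe sets of Mbp that rose were 3 of the _x_at kind and 1 of the _a_at kind. Probe set 1425263_a_at measured 1047.9, 739.2, 660.7, 963.1 and 1009.3 in wild-type replicates 1 to 5. In D257A replicates 1 to 5 it measured 2672.9, 2404.6, 2089, 2726.4 and 2004. The groups lay far apart, at 884 ± 173 and 2379 ± 329 (n = 5 each, SD; log2 fold change 1.42, SE 0.18, limma adjusted p = 0.00245). Leaving out any single array kept its call, with adjusted p-values from 0.00271 to 0.0119.

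Probe set 1454651_x_at rose from 25344 ± 10219 to 58035 ± 9130 (n = 5 each, SD; log2 fold change 1.28, SE 0.25, limma adjusted p = 0.0208). Its wild-type values were 24386.9, 22683.5, 41446.4, 13081.5 and 25121.1 in replicates 1 to 5. Its D257A values were 54428.7, 69277.1, 50560.5, 66266.6 and 49641.8. Every D257A array stood above every wild-type array. Without wild-type replicate 2 or wild-type replicate 5 the call was lost (adjusted p of 0.0636 and 0.0573).

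Probe set 1436201_x_at rose from 39206 ± 3683 to 66304 ± 10697 (n = 5 each, SD; log2 fold change 0.75, SE 0.14, limma adjusted p = 0.0189). It measured 37162.2, 37072.1, 45000.3, 36089.3 and 40705.2 in wild-type replicates 1 to 5, and 66142.8, 79410.9, 53815.2, 74130.8 and 58020.2 in D257A replicates 1 to 5. The groups did not overlap here either. Its call was lost without wild-type replicate 2 (adjusted p = 0.0636), 4 (0.0529) or 5 (0.0524). Probe set 1456228_x_at rose from 52686 ± 12558 to 89114 ± 15099 (n = 5 each, SD; log2 fold change 0.77, SE 0.17, limma adjusted p = 0.0397). Its highest wild-type array was replicate 3 at 73473.8, below the lowest D257A array, replicate 1 at 79218.2. Only the fit without wild-type replicate 3 kept that call (adjusted p = 0.0127), and leaving out any other array gave adjusted p-values from 0.0533 to 0.116.

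The remaining Mbp probe sets did not pass the test, and their arrays were not ordered alike. Probe set 1425264_s_at is the only one of Mbp with a negative log2 fold change (-0.62, SE 0.23, limma adjusted p = 0.182). It measured 1938.5 to 2376.8 in wild-type arrays, with a median of 2215.4, and 767.7 to 1977.4 in D257A arrays, with a median of 1631.4. D257A replicate 4, the highest of all arrays for 1451961_a_at and 1419646_a_at, was the lowest there. Probe set 1451961_a_at measured 15618.1, 15721.4, 1560.8, 17803.1 and 20048.9 in wild-type replicates 1 to 5. In D257A replicates 1 to 5 it measured 24066.9, 1760.4, 37577.9, 62534.4 and 26208. Wild-type replicate 3 and D257A replicate 2 stood far below all the others, and the standard error exceeded the difference (log2 fold change 0.85, SE 0.90, adjusted p = 0.685). The same 2 arrays were the lowest of their groups for 1419646_a_at, at 35424 and 32168.4, beside 50657.5 to 60522.9 in the other wild-type arrays and 67780.3 to 92401.2 in the other D257A arrays (log2 fold change 0.32, SE 0.25, adjusted p = 0.56).

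**Figure D2:**
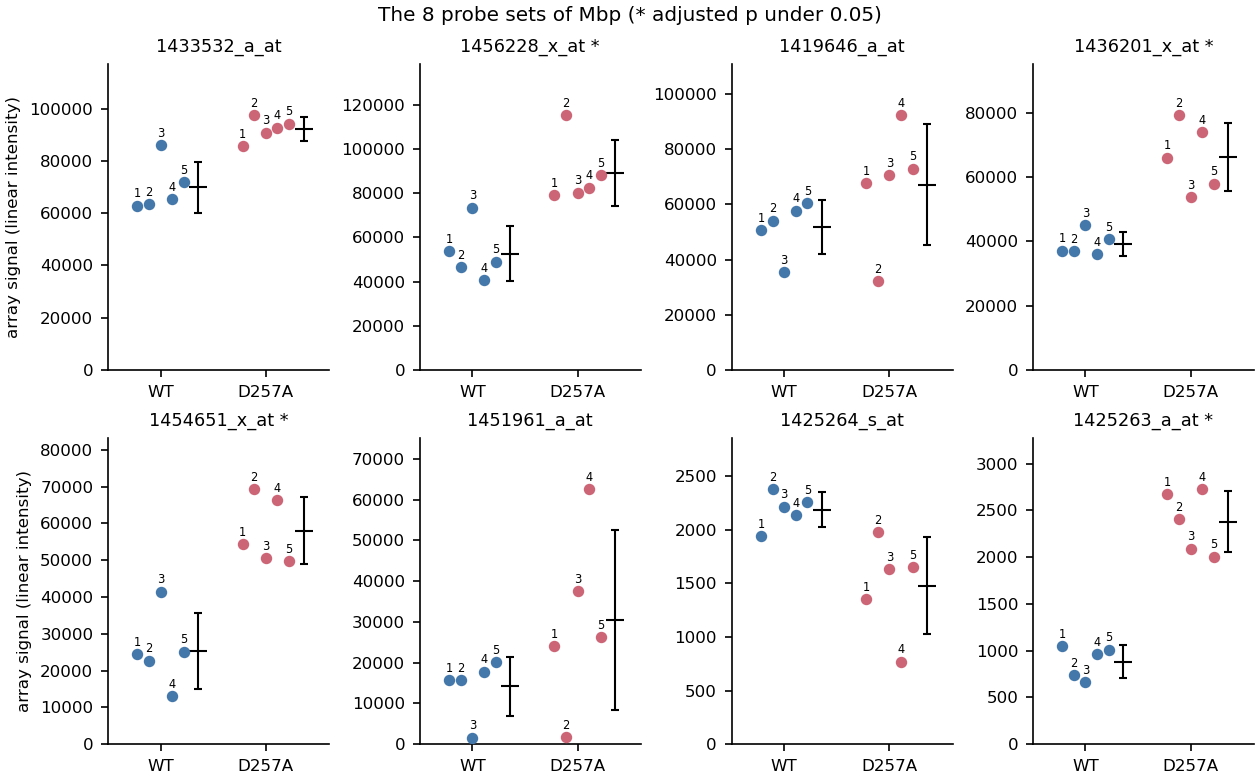
Array signal (linear intensity, axes from 0) of the 8 probe sets of Mbp on every array, points numbered by replicate, with mean ± SD of each group (n = 5); an asterisk marks a limma adjusted p under 0.05. The groups do not overlap in the 4 marked panels, and wild-type replicate 3 and D257A replicate 2 are low in 1451961_a_at at 1560.8 and 1760.4.

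Mobp encodes a small basic protein of compact central myelin. It was the only member called by its brightest probe set, 1433785_at. That probe set measured 3108.8, 6922.4, 5138.5, 4610.5 and 8216.1 in wild-type replicates 1 to 5, and 11790.3, 7093.7, 13538.7, 20230.7 and 15773.6 in D257A replicates 1 to 5. D257A replicate 2 lay within the wild-type range, below wild-type replicate 5, and the other D257A arrays lay above it. Mobp rose 2.44-fold by the ratio of the group means, with a log2 fold change of 1.28 (SE 0.30, limma adjusted p = 0.0466). The call was close to the threshold: it was kept without D257A replicate 2 (adjusted p = 0.0153) and lost when any other single array was left out (0.0559 to 0.109).

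The other Mobp probe sets had positive log2 fold changes and were not called. Probe set 1421010_at measured 1078.7, 2357.3, 712.2, 2081 and 3781 in wild-type replicates 1 to 5 and 5125.1, 905.4, 7182.8, 13460.3 and 4031.2 in D257A replicates 1 to 5 (log2 fold change 1.39, SE 0.62, limma adjusted p = 0.279). The low arrays were again wild-type replicate 3 and D257A replicate 2. Probe set 1450088_a_at measured 65.4 and 134.5 on those arrays, beside 761.9 to 2525.4 on the other wild-type and 1760.4 to 8678.2 on the other D257A arrays (log2 fold change 1.15, SE 1.05, adjusted p = 0.623). Probe set 1436263_at ranged from 749.4 to 1782.6 in wild-type and from 1646.4 to 2370.8 in D257A arrays (log2 fold change 0.58, SE 0.23, adjusted p = 0.215). The dimmest, 1441308_at, was not tested: it measured 12.4 to 24 and 29.3 to 57.4, without overlap, at signals too low to say that they exceed background.

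The stretch before the start of Mobp is shown because SOX10, a transcription factor that oligodendrocytes need for myelin genes, belongs to a family whose sites have a short core, and that core recurs there. The letters searched were ACAAAG and ACAAT as SOX cores, CAGCTG as an E-box that OLIG factors can bind, and GCGTGGG as an EGR site, on both strands, in windows from 250 bases before to 50 after a start. RefSeq windows of GRCm38.p6 were searched for 8 members, with 10 starts, and Mbp was left out of the search. Capitals mark ACAAAG or its complement CTTTGT, and the 250 bases before each start are given 5′ to 3′ in the direction of the gene, for Mobp at chr9:120149492-120149741 (plus strand) and for Opalin at chr19:41077114-41077363 (minus strand).
Mobp: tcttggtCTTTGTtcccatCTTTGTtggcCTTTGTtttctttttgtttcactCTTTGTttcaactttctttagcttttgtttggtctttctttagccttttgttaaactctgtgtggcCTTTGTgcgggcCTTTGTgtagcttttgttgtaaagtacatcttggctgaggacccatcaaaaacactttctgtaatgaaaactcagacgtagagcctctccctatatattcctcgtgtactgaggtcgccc
Opalin: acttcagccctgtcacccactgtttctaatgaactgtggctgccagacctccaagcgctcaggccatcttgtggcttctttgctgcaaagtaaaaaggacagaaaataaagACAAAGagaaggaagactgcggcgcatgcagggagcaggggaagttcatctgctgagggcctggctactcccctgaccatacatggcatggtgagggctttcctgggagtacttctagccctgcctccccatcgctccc
The Mobp window held 6 matches to ACAAAG, from 243 to 120 bases before the start and all as CTTTGT. Of 32851 mouse windows of that length 18.7% held 1 or more, 2.37% held 2 or more and 0.198% held 3 or more, and the Mobp window was the only one with 6. Opalin, a sialylated membrane protein of oligodendrocytes, had 1 match before its start and 1 after it, and Cnp had 1. The windows of 2 Mag starts overlap and held the same single match. ACAAT, found in 31% of all windows, matched in none of the 10, CAGCTG (16.3%) in that of Opalin and GCGTGGG (5.04%) in that of Cnp. Apart from the shared Mag match, none overlapped another. A match describes these letters and is not a measured binding site.

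Mag and Mog are adhesion proteins of the immunoglobulin family, Mag on the inner loop of myelin facing the axon and Mog on the outermost surface of central myelin. Mag measured 2025.3, 2297.9, 2475.2, 2471.9 and 3377.4 in wild-type replicates 1 to 5 and 2768.5, 2212.5, 3642.7, 9024.5 and 4048.4 in D257A replicates 1 to 5. A single array, D257A replicate 4, stood far above the others, and the groups overlapped. The difference did not pass the test (log2 fold change 0.61, SE 0.31, limma adjusted p = 0.348), and without D257A replicate 4 the log2 fold change was 0.31. Mog was too dim to be tested, at 178.8 to 440.4 in wild-type arrays (median 261.3) and 247.2 to 619.9 in D257A arrays (median 358.5). Its groups overlapped over most of their range, and with dim probe sets included its log2 fold change was 0.32 (SE 0.34, adjusted p = 0.689).

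Cnp, an enzyme of 2′,3′-cyclic nucleotides that sits in the cytoplasm-filled channels of myelin, gave different answers by probe set. The brightest, 1437341_x_at, measured 25408.7, 16332.8, 33192.4, 26786.9 and 24349 in wild-type replicates 1 to 5 and 31322.5, 42169, 28638.3, 31426.6 and 31745 in D257A replicates 1 to 5. D257A replicate 2 was the highest of all arrays there (log2 fold change 0.41, SE 0.19, limma adjusted p = 0.283). In 1418980_a_at that array was instead the lowest, at 3690.5, and the log2 fold change was -0.17 (SE 0.33, adjusted p = 0.847). In 1449296_a_at it was the lowest too, at 1034.9, next to wild-type replicate 3 at 1091 (log2 fold change 0.32, SE 0.66, adjusted p = 0.854).

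Ugt8a makes galactosylceramide, the typical glycolipid of myelin. Its brightest probe set, 1419063_at, measured 4595.6, 3832.1, 6512.9, 3956 and 3434.9 in wild-type replicates 1 to 5 and 8033.5, 8040.3, 6944.4, 5264.4 and 5432.9 in D257A replicates 1 to 5. Only wild-type replicate 3 reached into the D257A range, and in 23 of the 25 pairs of arrays the D257A one was higher. The difference missed the threshold (log2 fold change 0.61, SE 0.20, limma adjusted p = 0.148). The dimmer 1419064_a_at had a negative log2 fold change with a wide error (-0.48, SE 0.76, adjusted p = 0.797), with D257A replicates 2 and 5 at 62.5 and 256.3 and the other D257A arrays at 1336.5 to 1816.1.

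Mal, Cldn11 and Opalin are membrane proteins. Mal is a proteolipid that sorts lipids and proteins to the myelin membrane, and measured 12308 to 15925.6 in wild-type (median 13145.7) and 14465.9 to 21005.2 in D257A arrays (median 17463.3). The upper wild-type and lower D257A arrays overlapped (log2 fold change 0.30, SE 0.15, limma adjusted p = 0.34). Its other probe set, 1432558_a_at, had a log2 fold change of 0.25 (SE 0.38, adjusted p = 0.788). Cldn11, the claudin of the tight junctions between myelin layers, which in the cochlea is also known in basal cells of the stria vascularis, measured 3468.3 to 6228.4 in wild-type (median 4221) and 4677.1 to 6545.4 in D257A arrays (median 5638.5). Wild-type replicates 3 and 4 lay among the D257A values (log2 fold change 0.31, SE 0.19, adjusted p = 0.436).

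Opalin was too dim to be tested. Its brighter probe set, 1435854_at, measured 170.3, 260.8, 375.5, 401 and 337.9 in wild-type replicates 1 to 5 and 605, 339.9, 729.4, 733.2 and 280.3 in D257A replicates 1 to 5. D257A replicates 1, 3 and 4 were above all wild-type arrays and replicates 2 and 5 were not. With dim probe sets included the log2 fold change was 0.72 (SE 0.35, limma adjusted p = 0.334). Its other probe set, 1447487_at, ranged from 40.6 to 367.2 and from 123.4 to 221.5.

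Wild-type replicate 3 and D257A replicate 2 bear on many of these values. Of the 14 comparisons of a probe set with the brightest one of the same gene, 7 had those as the 2 lowest arrays, down to -3.95 on the log2 scale from the median of the arrays (Mobp 1450088_a_at, wild-type replicate 3). For Ugt8a 1419064_a_at the 2 lowest were D257A replicates 2 (-4.57) and 5 (-2.21). Over all tested genes, wild-type replicate 3 and D257A replicate 2 were the 2 lowest arrays in 1525 of 7713 such comparisons, or 19.8%. A probe set was more than 1 log2 unit lower than that median in 16% of comparisons on wild-type replicate 3, in 19% on D257A replicate 2, in 6.35% on D257A replicate 5 and in 0.687% to 2.76% on the other arrays. Where along a transcript each probe set lies was not analysed here.

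**Figure D3:**
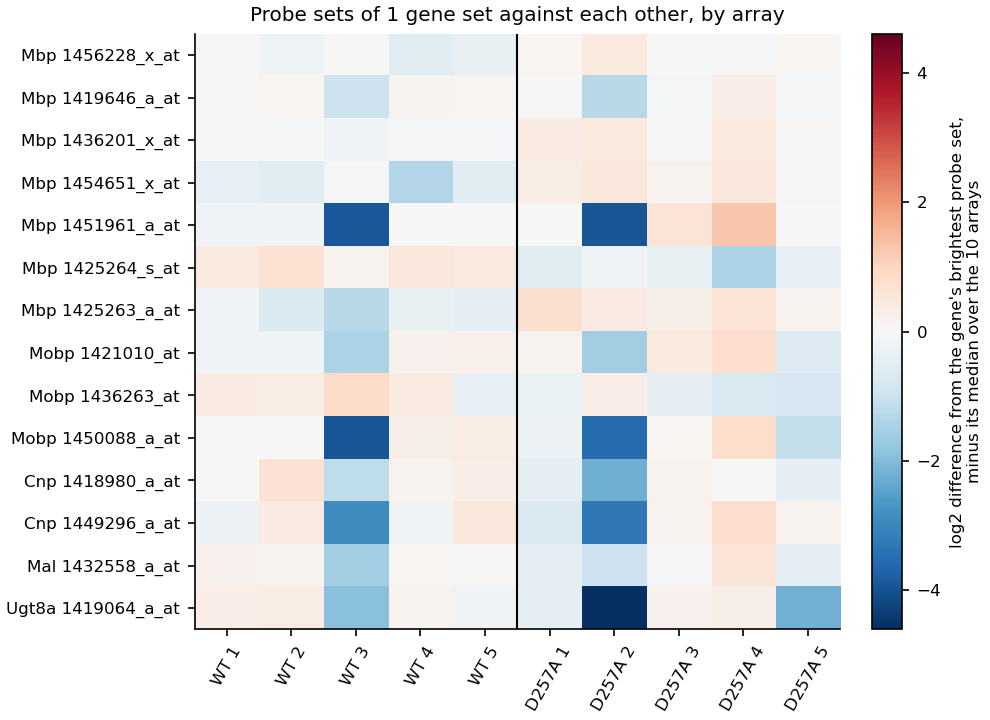
Log2 difference between each of 14 probe sets and the brightest probe set of the same gene on each array, minus the median of that difference over the 10 arrays (colour; blue is lower, red is higher). Wild-type replicate 3 and D257A replicate 2 are the 2 lowest arrays in 7 of the 14 rows, and the lowest value of all is -4.57 (Ugt8a, D257A replicate 2).

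With both arrays left out, 4 wild-type and 4 D257A arrays remained, and 6 of the 21 member probe sets rose, against 1.12% of all tested probe sets. All 6 belong to Mbp or Mobp. The added one was Mobp 1421010_at (log2 fold change 1.65, SE 0.40, limma adjusted p = 0.0488). The adjusted p of Mobp 1433785_at became 0.016, and those of the called Mbp probe sets lay between 0.00443 (1425263_a_at) and 0.0145 (1436201_x_at). The brightest Mbp probe set missed the threshold by little (log2 fold change 0.46, SE 0.11, adjusted p = 0.0501). Ugt8a 1419063_at gave 0.68 (SE 0.18, adjusted p = 0.0734). D257A replicate 2 had been the lowest D257A array for Mobp 1433785_at, at 7093.7. Wild-type replicate 3 had been the highest wild-type array for Mbp 1433532_a_at and Ugt8a 1419063_at, at 85889.4 and 6512.9. Leaving them out takes away overlap between the groups, so the smaller p-values of these probe sets are not separate support.

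**Figure D4:**
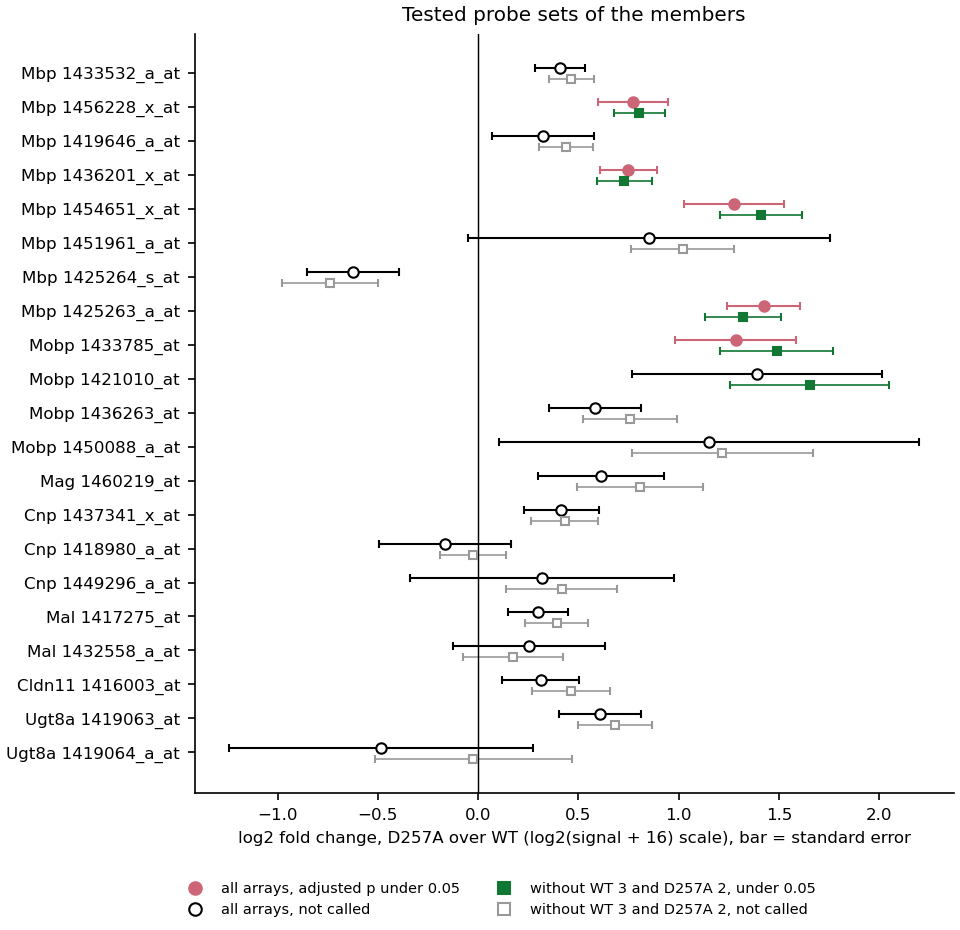
Log2 fold change (D257A over wild type, on the scale of log2 of signal + 16) ± standard error of the 21 tested member probe sets, with all 10 arrays (circles) and without wild-type replicate 3 and D257A replicate 2 (squares); filled symbols have a limma adjusted p under 0.05. With all arrays 5 are filled and 18 are positive, and without the 2 arrays 6 are filled.

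Pmp22, a protein of compact peripheral myelin made by Schwann cells, served as a reference for peripheral myelin. It measured 44351 ± 4944 in wild-type and 44895 ± 4085 in D257A arrays (n = 5 each, SD; log2 fold change 0.02, SE 0.13, limma adjusted p = 0.959). When each array's Pmp22 signal was subtracted on the log2 scale, 2 of the 21 member probe sets were higher in D257A arrays, against 0.688% of all probe sets higher and 0.906% lower. They were Mbp 1425263_a_at (log2 fold change 1.40, SE 0.19, adjusted p = 0.00421) and Mbp 1454651_x_at (1.26, SE 0.26, adjusted p = 0.0323). The former was kept whichever array was left out, while the latter was kept only without wild-type replicate 3 (adjusted p = 0.01). Mobp 1433785_at relative to Pmp22 gave 1.26 (SE 0.35, adjusted p = 0.0996).

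Genes that oligodendrocytes express apart from the members were measured by their brightest probe sets. Of 12 tested oligodendrocyte transcripts 1 rose and none fell, 10 were positive, and their median was 0.42 on the log2 scale. The one that rose was Adamts4, a secreted protease that cleaves proteoglycans. Which cells of the tissue its signal came from was not measured. It measured 444.5, 674.9, 379.9, 564.4 and 648.6 in wild-type replicates 1 to 5 and 1183.1, 1064, 923.7, 1770.7 and 1386.4 in D257A replicates 1 to 5. The groups did not overlap (log2 fold change 1.19, SE 0.23, limma adjusted p = 0.0196), and the call was kept in all 10 fits without 1 array, at adjusted p-values of up to 0.0498.

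Ermn, a cytoskeletal protein of late oligodendrocytes, missed the threshold at 257.1 to 843.6 in wild-type and 1076.5 to 2279.1 in D257A arrays, without overlap (log2 fold change 1.29, SE 0.32, limma adjusted p = 0.0568). Hapln2, a link protein of the node of Ranvier that oligodendrocytes secrete, measured 121.5 to 628.9 and 588.2 to 2160.4 (log2 fold change 1.68, SE 0.42, adjusted p = 0.0592). The brightest of the list were Bcas1, a marker of oligodendrocytes that begin to make myelin, Aspa, an enzyme that frees acetate from N-acetylaspartate, and Cntn2, an adhesion protein of the juxtaparanode. Bcas1 measured 12095 ± 941 and 19177 ± 5914 (n = 5 each, SD; log2 fold change 0.62, adjusted p = 0.0996). Aspa gave 0.07 (adjusted p = 0.897) and Cntn2 -0.69 (adjusted p = 0.313).

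Of 4 tested transcription factors of the oligodendrocyte lineage none passed the test. Olig1 measured 553.8, 1289.6, 1196.4, 930.8 and 1717.3 in wild-type replicates 1 to 5 and 1423.2, 1807.9, 1921.9, 5725.7 and 2108.3 in D257A replicates 1 to 5 (log2 fold change 1.08, SE 0.37, limma adjusted p = 0.157). D257A replicate 4 stood far above every other array. Myrf, which switches on myelin genes, gave 1.07 (SE 0.47, adjusted p = 0.266). Sox10, which Schwann cells share, measured 10284 ± 952 and 7312 ± 2678 (n = 5 each, SD; log2 fold change -0.57, SE 0.23, adjusted p = 0.23). Of 4 tested precursor transcripts none passed, with a median of 0.01, and the brightest were Ptprz1 (-0.01), Pdgfra (-0.10) and Lhfpl3 (0.03).

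Other membrane proteins of myelin had mostly negative differences. Of 8 tested none passed the test and 1 was positive, and their median was -0.30 on the log2 scale. Its brightest genes were Gpm6b, a relative of the main central myelin proteolipid (-0.44, SE 0.30, limma adjusted p = 0.486), Plekhb1, a membrane protein with a pleckstrin homology domain (0.24, SE 0.27, adjusted p = 0.7), and Cd9, a tetraspanin (-0.43, SE 0.18, adjusted p = 0.255). Whether the members differ from this list was not tested. Of 14 tested genes of myelin lipid synthesis none passed and 10 were positive, with a median of 0.16. Among them Scd2, a fatty acid desaturase, gave 0.26 (adjusted p = 0.389), Hmgcs1, an early enzyme of cholesterol synthesis, 0.25 (0.545), and Cers2, a ceramide synthase, 0.16 (0.645). Gal3st1, which adds sulfate to the lipid that Ugt8a makes, measured 1085.8 to 1604.1 in wild-type and 1708.7 to 2843.5 in D257A arrays, without overlap, and missed the threshold (log2 fold change 0.74, SE 0.18, adjusted p = 0.055).

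Of 14 tested genes of peripheral myelin and Schwann cells 1 rose, none fell, 11 were positive, and their median was 0.23 on the log2 scale. It was Egr2, which directs myelination in Schwann cells and is also an early response gene of other cells (log2 fold change 0.75, SE 0.16, limma adjusted p = 0.0279). Its call was lost in 5 of the 10 fits without 1 array, up to an adjusted p of 0.0941 without wild-type replicate 2. Beside Pmp22 the brightest were S100b, a calcium-binding protein of glia (-0.11, adjusted p = 0.839), and Ngfr, a neurotrophin receptor (-0.15, adjusted p = 0.883). Of 9 tested genes of the node and paranode, where myelin meets the bare axon, none passed and 6 were positive, with a median of 0.01. The brightest was Cntn1, an axonal adhesion protein (0.63, SE 0.18, adjusted p = 0.0922), followed by the axonal potassium channels Kcna1 (0.00, SE 0.16) and Kcna2 (-0.09, SE 0.19).

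**Figure D5:**
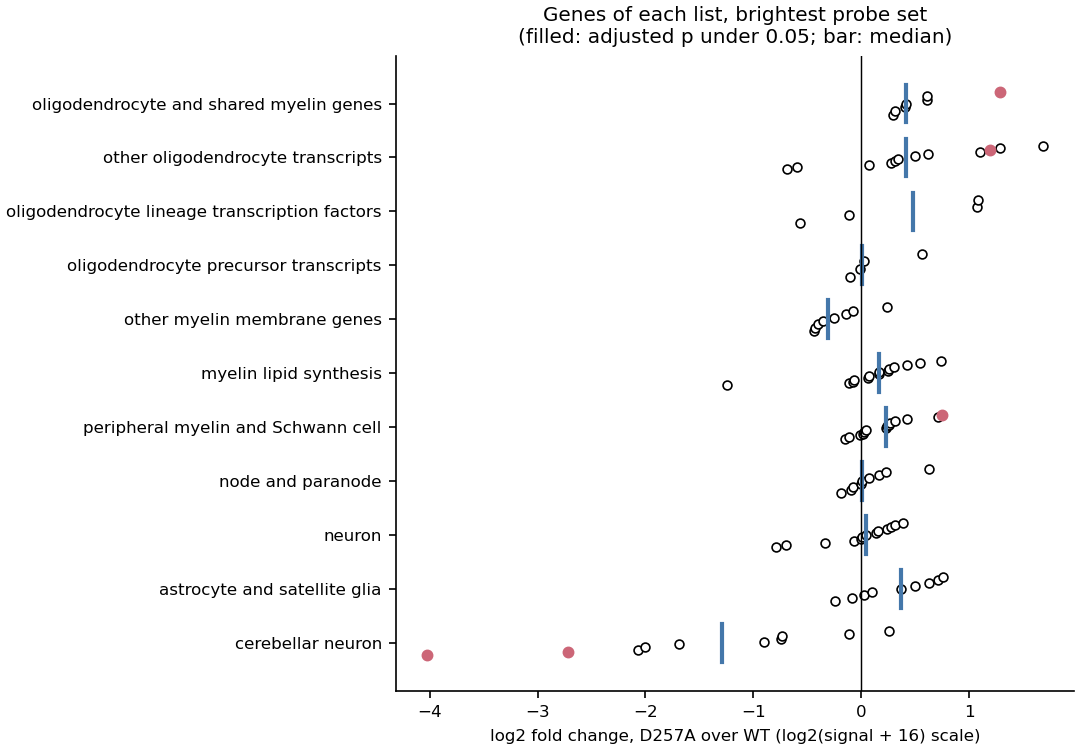
Log2 fold change (D257A over wild type, on the scale of log2 of signal + 16) of the tested genes in 11 lists, 1 point a gene by its brightest probe set; filled points have a limma adjusted p under 0.05 and the bar is the median. The median of the 7 members is 0.41, that of other oligodendrocyte transcripts 0.42 and that of cerebellar neuron genes -1.29.

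Genes of brain and other tissue differed between the arrays too, and their part in the members' differences was not tested. Of 10 tested genes of cerebellar neurons 2 fell (Pcp2, log2 fold change -4.02, limma adjusted p = 0.0166, and Car8, -2.72, adjusted p = 0.048), and 9 were negative. Their summed signal was 53836.3 to 165633.1 in wild-type and 43659.9 to 63457.7 in D257A arrays, against 110769.3 to 154839.7 and 167027.8 to 183913.6 for the 9 members, and no gene of either list was at 0. The largest part of the members' sum on every array was Mbp, at 62778.3 to 85889.4 in wild-type and 85494.4 to 97525.9 in D257A arrays, with overlap. How often sums of other genes separate the groups was not computed. Among wild-type arrays, replicate 1 had the smallest sum for cerebellar genes. It also had the lowest signal of all arrays for Mbp, Mobp, Mog, Mag, Cldn11, Opalin, Olig1, Olig2 and Myrf. Of the other members, Cnp was lowest on wild-type replicate 2, and Mal and Ugt8a on wild-type replicate 5, which had the largest cerebellar sum. Most other lineage transcription factors, among them Sox10, were lowest on other arrays. Mog, Opalin and Olig2 were too dim to be tested. Neuron genes summed to 218180.9 to 305551.6 in wild-type and 187751.9 to 298457.2 in D257A arrays, and astrocyte and satellite glia genes to 71167.9 to 123218.7 and 98579.3 to 133682, with none of 13 and none of 9 called. Muscle genes fell in 7 of 14, with sums of 187641.6 to 571745.8 in wild-type and 13237.1 to 288270.6 in D257A arrays. Of 10 neutrophil genes 9 were positive, and their median was 0.96 on the log2 scale. Mpo and Ctsg, granule enzymes, rose (1.12 and 1.31, limma adjusted p = 0.0309 and 0.0337) and Ltf, lactoferrin, which glands also make, fell (-2.11, adjusted p = 0.0306). Their sums were 109122.5 to 183255 in wild-type and 109753.1 to 318401.2 in D257A arrays. Macrophage and microglia genes summed to 33671.2 to 42002.8 and 37776.9 to 54998.7, with 8 of 9 positive, a median of 0.24 and none called.

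D257A replicate 4 was the highest of all 10 arrays for 3 of the 9 members (Mobp, Mag and Opalin), for 5 of 9 lineage transcription factors and for 6 of 15 other oligodendrocyte transcripts. D257A replicate 2 was the highest for 3 other members (Mbp, Cnp and Ugt8a). D257A replicate 4 was also the highest for 4 of 10 astrocyte and satellite glia genes, among them Gfap, the intermediate filament of astrocytes (10574.3, the next array at 5323.3), and for 4 of 10 macrophage and microglia genes. Its summed signal of other oligodendrocyte transcripts was 55179.9, beside 29285.2 to 37115.8 in the other D257A and 26680.3 to 29044.2 in the wild-type arrays. It also had the lowest muscle sum and the lowest sum of cochlear genes, at 125209.9, with 143114 to 201394.7 in the other arrays. Coch, Otos and Gjb2 were each lowest on that array. Without D257A replicate 4, 3 member probe sets kept a call, all of them readings of the same gene, Mbp. Over all tested probe sets that fit called 296 higher and 205 lower, against 233 and 280 with all arrays. Mobp 1433785_at gave 1.12 there (limma adjusted p = 0.0812).

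Among themselves the members followed several orders of arrays. After the group means were removed, Mobp and Mag had a Pearson r of 0.79 over the 10 arrays, Mal and Opalin 0.73, and Mbp and Cnp 0.67, whereas Mobp and Ugt8a had -0.63. These values describe arrays that share a scaling and the arrays that stand apart. The genes most like the mean profile of the 7 tested members over all arrays were Tmem108 (r = 0.925), Bmp6 (0.924), Lamp5 (0.922), Fzd6 (0.921) and Rcor2 (0.92). That profile carries the group difference, at -0.50 to -0.03 on wild-type and 0.08 to 0.51 on D257A arrays. Lamp5 and Rcor2 passed the test themselves (limma adjusted p = 0.000728 and 0.0275). With the group means removed the most similar genes were Noa1 (0.947), Nhlrc2 (0.927), Sel1l3 (0.918), Slc30a5 (0.902) and Golga7 (0.897). Both sets are the highest r among all genes compared, and how high such r reach by chance was not computed.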

How the data were processed

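Total RNA of 10 cochlea samples was labelled with biotin and hybridised to mouse arrays, per the labels' protocols. The values the authors deposited are intensity on a linear scale, 1 for each probe set on each array. The submitters' processing notes name GCOS 1.3, and no source used here gives the background correction or the probe summary. The authors' scaling was kept. Of 45101 probe sets, 64 controls with values for D257A replicate 5 only were left out. Genes were named from the platform table: 34945 probe sets had 1 gene, 932 several and 9160 were unnamed.

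Signals were transformed as log2(signal + 16), and the fraction 0.5 with the higher mean (22518) was tested. The model had group as its only term and was fitted with lmFit and eBayes of limma 3.58.1 (R 4.3.3), with a trend on intensity and 8 residual degrees of freedom. Tests were two-sided, and p-values were adjusted by Benjamini-Hochberg over the whole tested table, with a threshold of 0.05. A fold change on that scale understates the change of dim genes. The number of arrays limits the precision. No batch was tested, since detection calls and scan dates were left aside. The scripts were tested on simulated data in which 200 of 22518 probe sets were changed. They recovered 43% of changes of 1 log2 unit and 89% of changes of 2 log2 units. Of the calls made there, 10.2% were false.

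Named genes were all members with all their probe sets, and from each other list the genes that passed the test and its 3 brightest. The 5 genes most like the members' profile by each measure were named too. Ermn, Hapln2 and Gal3st1, all positive, were added outside that rule because they narrowly missed the threshold. Olig2 and Gfap were added for their extreme arrays. For lists of tissue outside myelin mostly counts and sums are given. The members and lists were chosen with earlier results of these data known. Pmp22 was the peripheral reference. Alternatives were a pseudocount of 1 or 64, median centring, quantile normalization, no filter, the brightest 30%, no trend, the mean over probe sets, weighted arrays, a block on replicate number, and arrays left out. Promoter sequences are RefSeq's for GRCm38.p6, and the files name no genome build.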

Additional observations from a re-analysis of the deposited data

Results flagged for a closer look

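In 8 of 50 groups of 5 arrays, 1 array lay apart from the others by more of the group's range than Dixon's 95% limit for 5 values (0.71); chance gives about 5% of groups. All 8 concern wild-type replicate 3 or D257A replicate 2. Wild-type replicate 3 was low for Mbp 1451961_a_at (gap of 0.902 of the range), Mal 1432558_a_at (0.78), Cnp 1449296_a_at (0.756) and Cnp 1418980_a_at (0.729). D257A replicate 2 was low for Mbp 1451961_a_at (0.732) and Cnp 1418980_a_at (0.728). It was high for Cnp 1437341_x_at (0.734) and Mbp 1456228_x_at (0.714).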

How the results depend on the processing

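No tested brightest probe set of a member, no tested probe set of Mbp, and neither Adamts4 nor Egr2 turned its sign under the alternatives, but several calls rest on the setting. The 5 member probe sets called became 3 with arrays centred on the median, 2 with no filter, 3 with no intensity trend, 7 with array weights (the brightest Mbp probe set, adjusted p = 0.03, and Ugt8a 1419063_at, 0.0236, being added), and 1 to 4 when 1 array was left out (1 without wild-type replicate 2 or 5). Those called relative to Pmp22, 2 in all, became 1 to 3 when 1 array was left out. Over all probe sets 513 calls became 322 among the brightest 30%, 1217 with array weights and 168 to 574 without 1 array. The 14 called genes of the other lists became 34 with array weights, 6 to 19 without 1 array, and 20 without both wild-type replicate 3 and D257A replicate 2.

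Median centring moved the median log2 fold change of all tested probe sets from -0.00054 to -0.10 and the share of calls that are higher from 45.4% to 26.4%; 18 of 21 member probe sets were positive, and Mobp 1433785_at had a limma adjusted p of 0.0599. By the mean over a gene's tested probe sets Mbp was called (log2 fold change 0.65, limma adjusted p = 0.038) and Mobp was not (1.10, adjusted p = 0.282). Ugt8a gave 0.06 (adjusted p = 0.96) and Cnp 0.19 (0.819), against 0.61 and 0.41 by their brightest probe sets. Mag gave 0.61, Cldn11 0.31 and Mal 0.28, none of them called.

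The replicate numbers did not pair the arrays: deviations of same-numbered arrays correlated at -0.337 to 0.183, and only wild-type replicate 1 correlated best with its own number. With the replicate number as a block, 188 probe sets, 1 member probe set (Mbp 1425263_a_at, adjusted p = 0.0195) and 1 relative to Pmp22 were called. Dim signals limit Mog and Opalin, which were not tested.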
